A study of Drosophila melanogaster with 2 samples.

Results

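Binding of Bowl at genes of receptor tyrosine kinase signalling was described for 10 genes of the EGFR and FGF pathways: Raf, aos, S, ths, pnt, Egfr, rho, spi, sty and btl. They are 10 of the 13986 protein-coding genes of the annotation, and they were chosen by their place in the pathway with results of these same lists already known, so their counts of peaks are a description and were not tested. A peak was given to a gene if its summit lay in the gene body or if the nearest start of a protein-coding gene (transcription start site, TSS) was that gene's. Of the 2198 peaks in the list from both replicates pooled, 16 belonged to the 10 genes. Bowl, a DNA-binding zinc-finger protein related to Odd-skipped, was mapped by chromatin immunoprecipitation and sequencing in 2 biological replicates, both from whole embryos aged 0 to 24 h of the strain bowl-GFP, which carries an insertion that targets bowl and makes a Bowl-eGFP fusion, precipitated with an antibody to GFP. Both replicates had the same genotype and age and form 1 group. Whole embryos mix all cell types and stages of that day, so a peak cannot be placed in a tissue.

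EGFR signalling in the fly starts when Rhomboid, a protease of the secretory pathway, cuts the membrane-bound ligand Spitz, which Star carries to it. The freed ligand activates the receptor, and Ras, Raf, MEK and MAP kinase pass the signal to the nucleus, where the ETS factor Pointed activates genes that the repressors Yan and Capicua hold silent. Argos outside the cell and Sprouty inside it damp the signal, and their genes are themselves activated by it. The FGF receptors Heartless and Breathless use the same kinase cascade in the mesoderm and the trachea.

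The deposited files hold, for each replicate and for the pooled data, all candidate regions by rank and, separately, the peaks past a threshold. Pooled data had a second peak list, marked as conservative, with a ranked list of its own. It was shorter, with 1557 peaks against 2198, but was not a part of the first list. Of the 2198 pooled peaks, 1443 overlapped a peak of the conservative list, and that list also held sites missing from the pooled list. Peak signal is a score of the authors' peak caller with no stated scale, and is comparable only within a list. Each candidate also has a −log10 of its irreproducible discovery rate (IDR), which says how well its rank repeats between a pair of peak sets. The threshold was a −log10 IDR of 2, which is an IDR of 0.01, and the highest value in the ranked lists was 5. The replicates differed in yield, with 1662 peaks from 102124 candidates in replicate 1 and 772 peaks from 106305 candidates in replicate 2. The files used here give no read counts, so sequencing depth is unknown. Coordinates are on dm6.

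In the pooled list 7 of the 10 genes carried a peak: Raf, sty, S, pnt, spi, aos and ths. The share over all 13122 protein-coding genes with a candidate was 13.9%. Pooled candidates numbered 11 to 91 per gene among the 10 (median 49.5), and their median was 7 over all genes with a candidate. Among the 4512 genes with at least 11 candidates 24.9% carried a peak. The conservative list had 16 peaks at 7 of the 10 genes, against 10.7% of genes. Replicate 1 had 18 peaks at 7 of them, with 11.3% of all genes, and replicate 2 had 8 peaks at 6 of them, with 5.72% of all genes. The 7 genes were not the same in each list, because rho had a peak in replicate 1 and spi had none there. The genes were chosen with results of these lists already known. Nothing is therefore read from the difference between their counts and the shares over all genes.

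Merged over the 4 peak lists, the peaks at the 10 genes made up 22 separate sites. Of these, 7 were in the lists of both replicates: 2 at Raf, 2 at S, and 1 each at aos, ths and sty. Another 10 sites were in the list of replicate 1 and not in that of replicate 2, 1 site was in the list of replicate 2 and not in that of replicate 1, and 4 sites were in neither and came from the pooled or conservative list. Over the whole lists, 639 of the 1662 peaks of replicate 1 overlapped 1 of the 772 peaks of replicate 2. The split by replicate is thus not read as a trait of these genes. Each of the 22 sites had a candidate in the ranked list of both replicates. Those lists hold 102124 and 106305 candidates, and the −log10 IDR at the sites went down to 0.06 in replicate 2. A candidate at a site is therefore not read as agreement between replicates. At the 7 shared sites the summits of the replicates lay 1 to 32 bp apart (median 23 bp), and the median was 22 bp over the 639 peaks of replicate 1 that overlapped a peak of replicate 2.

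**Figure D1:**
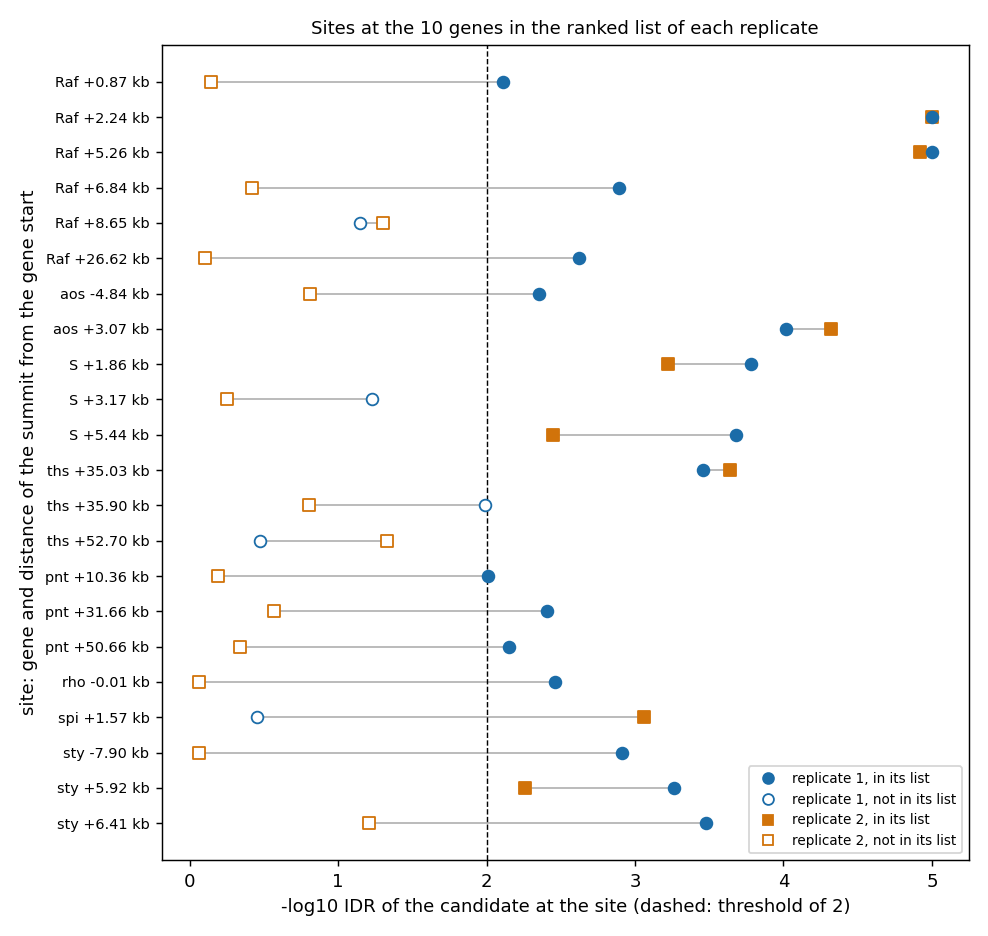
Each row is 1 of the 22 sites, named by gene and by the distance of its summit from the gene's outermost start in kb (negative is upstream), and the horizontal axis is the −log10 IDR of the candidate there. Circles are replicate 1 and squares replicate 2, filled where the site is in that replicate's peak list. At 7 sites both symbols are filled and lie past 2, and at 10 sites the circle alone is filled.

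Of the ligand genes, spi encodes Spitz, the main EGFR ligand. The spi gene (2L, 19567900 to 19577315, minus strand) had a promoter peak with a pooled signal of 81.2 (19575588 to 19575897), rank 1144 of 2198. Its summit lay 156 bp upstream of an inner start, 1.57 kb from the outermost start. It was the single site listed in replicate 2 and not in replicate 1: the signal was 45.4 with a −log10 IDR of 3.06 in replicate 2, and 34.1 with a −log10 IDR of 0.45 in replicate 1. The pooled list held a further region here (19575804 to 19576113) that overlapped the first and had a signal of 8.31, the lowest of the 16 peaks, with the same −log10 IDR of 2.83.

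The other ligand gene, ths, encodes Thisbe, an FGF8-like ligand of Heartless. It spans 57.6 kb (2R, 11756817 to 11814424), and its pooled peak (11791695 to 11792004) had a signal of 143 and rank 403. The summit lay 1484 bp downstream of the inner start, in an intron. Replicate 1 gave 71.1 (−log10 IDR 3.46) and replicate 2 gave 68.2 (−log10 IDR 3.64), so the site was listed in both. The conservative list added 2 intronic sites at ths, with signals of 72.3 and 62.2, whose −log10 IDR in the ranked list behind the pooled list was 1.99 and 1.81. Neither was in the list of a replicate, where the first reached 1.99 in replicate 1 and 0.8 in replicate 2. The site of signal 62.2 lay 52.7 kb into ths and was given to it by gene body alone. Its nearest start was that of CG13192, 15830 bp away.

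Ligand processing was represented by S and rho. S encodes Star, the protein that takes Spitz from the endoplasmic reticulum to Rhomboid. It carried 2 pooled peaks, both in its first intron of 15438 bp, 1857 bp (signal 148, 1075916 to 1076000) and 5434 bp (signal 131, 1072222 to 1072531) downstream of the TSS on 2L. Both were in all 4 lists: the first had signals of 86.7 in replicate 1 and 62.6 in replicate 2, and the second 80.0 and 48.2 in replicates 1 and 2. Between them the conservative list held another site, 3165 bp from the TSS, with a signal of 73.4. Its −log10 IDR was 0.67 in the ranked list behind the pooled list, well under the threshold. This site was in neither replicate's list, with a −log10 IDR of 1.23 in replicate 1 and 0.25 in replicate 2.

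The protease gene rho had a peak in replicate 1 alone. Its summit lay 10 bp upstream of the rho start (3L, 1463649 to 1463952), inside the larger gene Ptp61F, which runs on the opposite strand. The signal was 53.7 in replicate 1, with a −log10 IDR of 2.46. In replicate 2 the candidate there had a signal of 15.5, a −log10 IDR of 0.06 and rank 28394 of 106305. In the pooled data the candidate had a signal of 68.5 and a −log10 IDR of 1.11, under the threshold.

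The receptor genes had no peak in any of the 4 lists. Egfr, the EGF receptor gene (2R, 21522420 to 21559977), had 58 pooled candidates, of which the highest had a signal of 52.0 and a −log10 IDR of 1.39, 1705 bp from a start. Its highest candidate had a signal of 34.2 in replicate 1 and 31.3 in replicate 2. The FGF receptor gene of the trachea, btl (3L, 14075772 to 14083229), had 11 pooled candidates with a highest signal of 42 and a −log10 IDR of 0.53, 232 bp from a start. Its highest signals were 20.6 in replicate 1 and 25.6 in replicate 2. A missing peak says that no candidate passed the threshold at this unknown depth, and not that Bowl was absent.

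Raf, which encodes the kinase that phosphorylates MEK, had the most peaks and the highest signals of the 10 genes. It spans 48.4 kb (X, 2295466 to 2343870, plus strand) and has 2 annotated starts, 44.83 kb apart. All 5 pooled peaks lay in the second intron of the longer transcript, which is 43637 bp long. The strongest, 5256 bp from the outermost start (2300610 to 2300790), had a signal of 312 and rank 87 of 2198. The next, at 2241 bp (2297624 to 2297795), had 300.2 and rank 94. Their regions were 181 and 172 bp wide. Most pooled peaks of the 10 genes were 310 bp wide, and the strongest S peak was 85 bp. In both replicates the −log10 IDR of the Raf pair lay between 4.92 and 5. Replicate 1 gave 196 and 175 at these sites, and replicate 2 gave 117 and 121, so that the order of the pair differed between replicates.

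The windows around the summits of these strongest Raf peaks, and around the Raf summit 6840 bp from the start, which held words described below, are shown 75 bp to each side on the plus strand of dm6 (RefSeq Release 6 sequence). Capitals mark the 11 bases at the summit in the first pair, and in the last window the words CAGTAGC and GAGAGAG.
Raf, chrX:2300647-2300797: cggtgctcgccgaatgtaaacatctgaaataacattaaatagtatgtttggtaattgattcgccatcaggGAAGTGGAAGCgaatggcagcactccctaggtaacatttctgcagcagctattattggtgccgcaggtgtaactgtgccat
Raf, chrX:2297632-2297782: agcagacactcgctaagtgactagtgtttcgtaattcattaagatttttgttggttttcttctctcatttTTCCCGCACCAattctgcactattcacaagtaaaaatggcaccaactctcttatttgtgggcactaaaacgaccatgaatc
Raf, chrX:2302231-2302381: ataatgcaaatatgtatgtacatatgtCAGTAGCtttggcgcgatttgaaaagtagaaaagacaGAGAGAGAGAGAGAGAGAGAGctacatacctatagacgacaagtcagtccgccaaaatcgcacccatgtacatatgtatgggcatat

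The other Raf peaks were weaker. Those at 6840 bp and 8649 bp from the start had signals of 87.9 and 83.4, which places 4 of the 5 peaks within 9 kb of the outermost start. The site at 6840 bp was listed in replicate 1 (57.7, −log10 IDR 2.89) and not in replicate 2 (27.1, 0.42). The site at 8649 bp was in neither replicate's list, with a −log10 IDR of 1.15 in replicate 1 and 1.3 in replicate 2. Like the other pooled Raf peaks it was in the conservative list, there with a −log10 IDR of 2.66. The fifth peak, 26.62 kb into the gene (2321928 to 2322237), had a signal of 77.3. Its nearest start was that of CG14050, a gene on the opposite strand within the span of Raf, 3701 bp away, and it was listed in replicate 1 (57.7) and not in replicate 2 (24.0, −log10 IDR 0.1). Replicate 1 also listed a site 868 bp from the Raf start, in the 5' UTR, with a signal of 59.1, where replicate 2 had 16.2 and a −log10 IDR of 0.14.

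**Figure D2:**
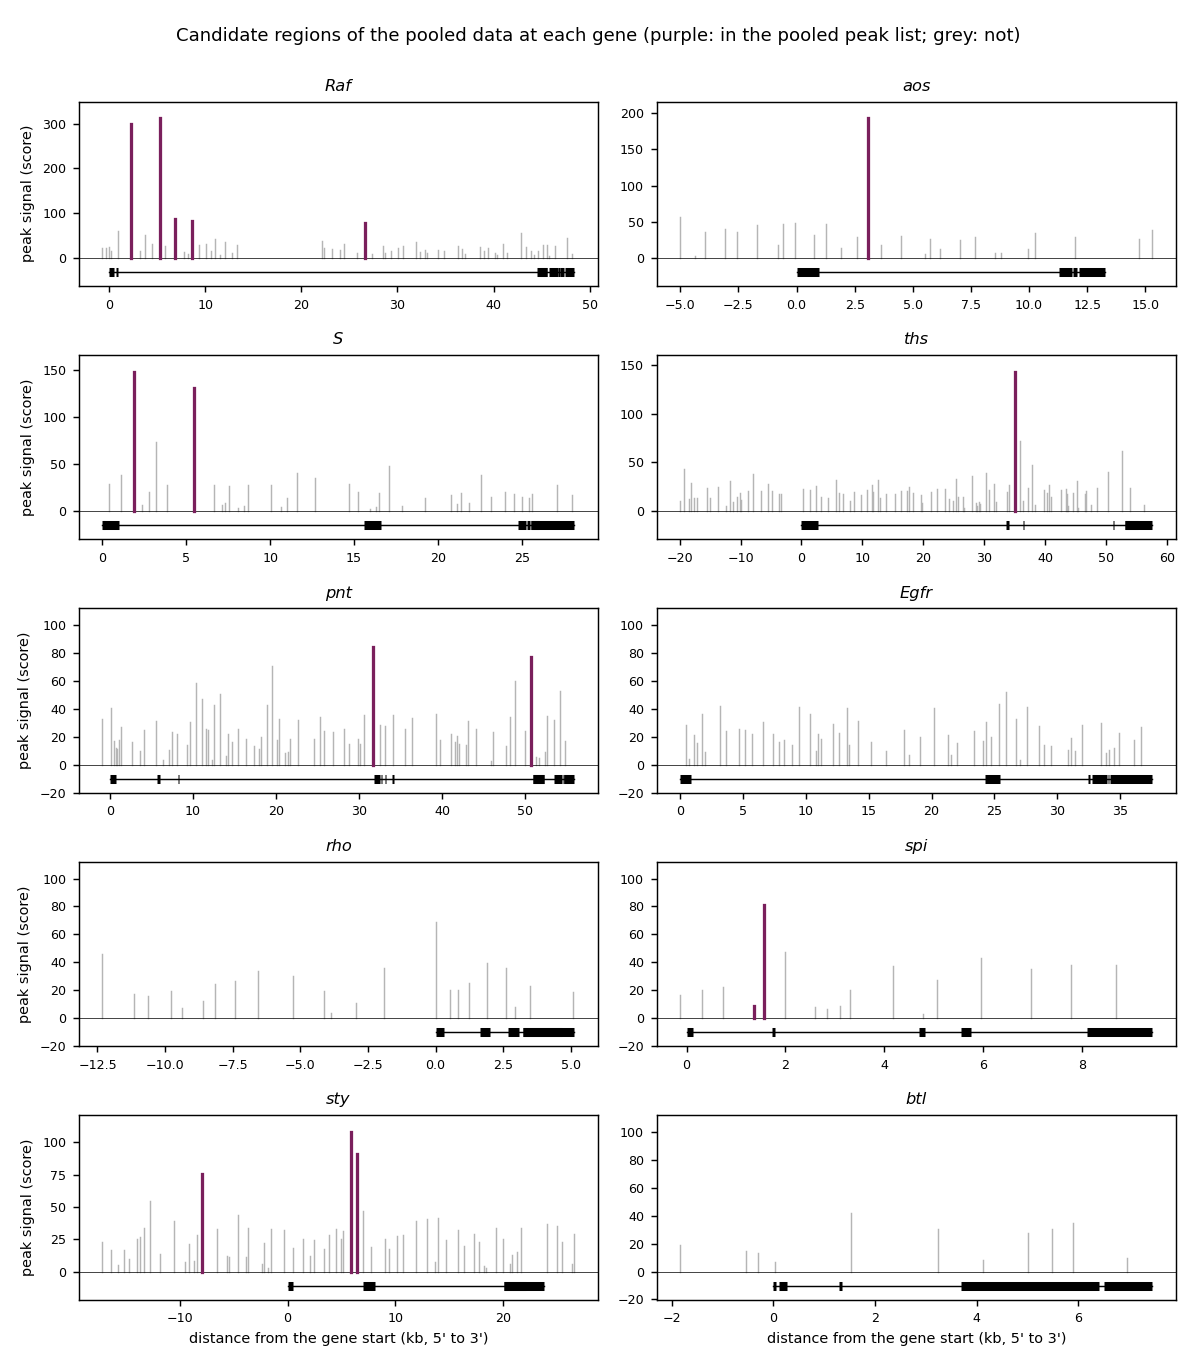
Each panel is 1 gene, with distance from the outermost start in kb along transcription on the horizontal axis and the pooled peak signal (a score, on a scale of its own in each panel) on the vertical axis. Sticks are candidate regions, purple where they are in the pooled list, and the bar below shows exons as boxes. Raf has 5 purple sticks, the tallest at 312, and the panels of Egfr, rho and btl have none.

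The inhibitor genes aos and sty both carried peaks. aos encodes Argos, which binds Spitz and keeps it from the receptor. Its pooled peak (3L, 16480428 to 16480737) had a signal of 193 and rank 220, 3067 bp downstream of the TSS in the first intron of 10306 bp. It was in all 4 lists, with 96.4 (−log10 IDR 4.02) in replicate 1 and 92.4 (−log10 IDR 4.32) in replicate 2. The aos gene lies within the span of CG33158 on the other strand. An intron of CG33158 also held a site 4845 bp upstream of aos that replicate 1 listed, with a signal of 48.2, and replicate 2 did not (33.9, −log10 IDR 0.81). The window around the summit of the listed aos peak, shared by both replicates, is shown on the plus strand with the 11 bases at the summit in capitals.
aos, chr3L:16480508-16480658: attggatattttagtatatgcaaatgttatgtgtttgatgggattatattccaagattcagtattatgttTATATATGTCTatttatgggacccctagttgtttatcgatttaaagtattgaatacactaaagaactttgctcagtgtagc

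sty encodes Sprouty, an intracellular inhibitor first known from tracheal branching. It carried 3 pooled peaks on 3L. The strongest, with a signal of 108 (3418858 to 3419167), lay 1052 bp upstream of the inner start, and the next, with 90.6 (3418367 to 3418676), 561 bp upstream of it, both in the 19503 bp first intron of the longer transcript. The first was in all 4 lists (64.4 in replicate 1, 41.3 in replicate 2). The second was listed in replicate 1 (65.4, −log10 IDR 3.48) and not in replicate 2 (33.5, −log10 IDR 1.21). The third peak, with 75.1, lay 7896 bp upstream of the outermost sty start in an intron of eIF5B, a translation factor gene. It was in the list of replicate 1 (59.2, −log10 IDR 2.91) and not in that of replicate 2 (20.9, −log10 IDR 0.06) or in the conservative list.

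At the output of the pathway, pnt encodes the ETS activator Pointed. The gene spans 55.9 kb on 3R, with starts at 0, 31.85 and 50.93 kb. Its 2 pooled peaks were promoter peaks at the inner starts: one 194 bp upstream of the second start (23314354 to 23314663, signal 84.6) and one 274 bp upstream of the third (23295357 to 23295666, signal 77.4). The conservative list held the first and not the second. Replicate 1 listed both, with signals of 55.5 and 54.8. Replicate 2 listed neither, with signals of 31.0 and 20.5 and −log10 IDR values of 0.57 and 0.34, and it had no pnt peak at all. Replicate 1 also listed an intronic site 10.36 kb into the gene, with a signal of 44.5 and a −log10 IDR of 2.01, just past the threshold. No list held a pnt peak nearer to the outermost start than that site.

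The windows around the pnt and spi promoter summits, which held words of the panel, are shown on the plus strand. Capitals mark the words: GAGAGAG or its reverse complement CTCTCTC in both pnt windows, the Capicua word TGAATGAA on the minus strand in the first, and ACAGTGG at spi.
pnt, chr3R:23314434-23314584: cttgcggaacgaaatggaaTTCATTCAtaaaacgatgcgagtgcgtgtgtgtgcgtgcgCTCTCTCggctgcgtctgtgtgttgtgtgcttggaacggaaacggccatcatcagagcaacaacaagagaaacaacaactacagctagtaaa
pnt, chr3R:23295437-23295587: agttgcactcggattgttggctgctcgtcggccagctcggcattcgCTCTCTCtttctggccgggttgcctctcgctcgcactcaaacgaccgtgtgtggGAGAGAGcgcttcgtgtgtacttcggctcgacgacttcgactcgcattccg
spi, chr2L:19575668-19575818: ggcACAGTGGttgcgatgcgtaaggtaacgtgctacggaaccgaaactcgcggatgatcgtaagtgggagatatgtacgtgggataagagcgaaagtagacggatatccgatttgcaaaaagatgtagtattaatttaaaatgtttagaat

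Words of 7 or 8 bases were read on both strands within 100 bp of each summit. GAGAGAG, the word of GAGA factor, lay near 3 of the 16 summits (both pnt promoters and the last Raf summit shown), against 6.41% of all pooled peaks and 2.78% of the candidates under the threshold. At Raf it was a run of overlapping copies across the summit, the nearest centred on it. CAGTAGC, the core of the odd-skipped word, lay near 1 of 16, at the same Raf summit and 45 bp from it, against 2.41% of all pooled peaks and 1.9% of those candidates. ACAGTGG, a word picked from an earlier ranking of these peaks, lay near 1 of 16, at spi and 69 bp from the summit, against 10.3% and 2.9%. TGAATGAA, a word for Capicua, lay near 2 of 16, the first pnt promoter at 52 bp and the Raf peak at 2241 bp from the start at 96 bp, against 1.68% and 1.34%. The ETS word CCGGAAG, the DREF word TATCGATA and the Zelda word CAGGTAG were near 0 of the 16 summits, with 1.14%, 1.82% and 1.14% of all pooled peaks. In all, 5 of 16 summits held a word, against 23.3% of all pooled peaks. Apart from ACAGTGG, the words are short forms written from general knowledge, and a match is not a site. GC content within 100 bp of the summit was 30.8% to 55.7% at the 16 peaks (median 41.3%), with a median of 38.3% over all pooled peaks (quartiles 32.8% and 46.3%).

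By position, the 16 peaks were mostly intronic. Introns held 12 of 16 summits, 75%, against 33.4% of all pooled summits. Promoters, within 500 bp of a TSS, held 4 of 16 (both spi regions among them), 25%, against 49.0%. The nearest TSS lay 156 to 8649 bp away at the 10 genes (median 2049 bp), and the median was 536 bp over all pooled peaks. The rule counts any summit inside a gene body, and these are long genes with many candidates, so the intron share is a description of these peaks and was not tested. Of the 15 peaks whose nearest start belonged to 1 of the 10 genes, 12 were at genes with an inner start over 500 bp from the first. Among those 12, 7 were nearer to an inner start (at pnt, spi, sty and ths), 58.3%, against 64.0% of such peaks in the whole list.

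**Figure D3:**
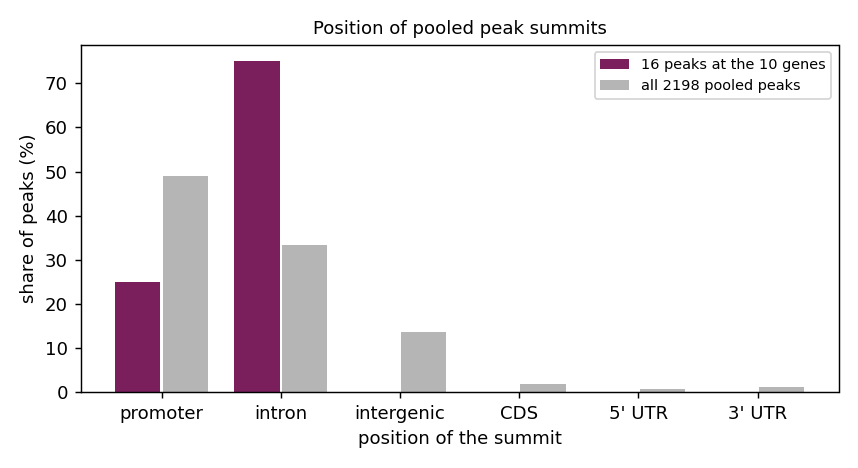
Share of peak summits (%) by position, for the 16 pooled peaks at the 10 genes (purple, left bars) and all 2198 pooled peaks (grey, right bars). The intron bars stand at 75% and 33.4%, and the promoter bars at 25% and 49.0%.

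By signal, the 16 peaks lay between 8.31 and 312 (median 89.2). The median over all pooled peaks was 82.6, and 11 of the 16 reached it. Of the 16, 14 overlapped a peak of the conservative list, against 65.7% of all pooled peaks. Overlap with the list of replicate 1 was found for 13 of 16, against 65.2%, and with that of replicate 2 for 9 of 16, against 34.6%. The 14 and the 9 each include both spi regions, which overlapped the same peak of the conservative list and the same peak of replicate 2. At the 10 genes, the pooled candidates just inside the threshold were the fifth Raf peak, with a −log10 IDR of 2.4, and the pnt peak farthest into the gene, with 2.45. Those just outside were the second ths site at 1.99, with a signal of 72.3, and a candidate 12713 bp from a sty start at 1.95, with a signal of 54.5.

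A list of 37 EGFR and FGF pathway genes, which includes the 10, was read by step of the pathway, beside the 13.9% of all genes with a candidate, and 24.9% of genes with at least 11, that carried a pooled peak. All 3 transcription factor genes, with 47 to 78 pooled candidates each, carried one: besides pnt, cic had 4 peaks with a strongest signal of 178, and aop, the gene of the ETS repressor Yan, had 3 with a strongest signal of 116. Of the 4 ligand processing genes 2 did, with 4 peaks at the rhomboid-family protease gene ru (strongest 87.7) besides those at S. Like rho, ru lies within the span of the larger gene Ptp61F. Of ru, the conservative list and replicate 1 held 1 peak each and replicate 2 held 0. The peaks of cic numbered 3 in the conservative list, 2 in replicate 1 and 1 in replicate 2, and those of aop 2, 4 and 1 in the same lists. Intracellular inhibitors did in 3 of 5 cases, with RasGAP1, a Ras GTPase-activating protein gene (186), and Mkp3, a MAP kinase phosphatase gene (97.1), besides sty. Extracellular inhibitors did in 2 of 3, with ed, which encodes the adhesion protein Echinoid (114), besides aos, and ligands in 3 of 7, with the tracheal FGF gene bnl (104) besides spi and ths. The peaks of bnl numbered 1 in the conservative list, 2 in replicate 1 and 0 in replicate 2. Adaptor and exchange factor genes did in 2 of 6, the Grb2-like drk (173), whose peak was nearest to the start of mars, and dos (57.0). The dos peak was in the pooled list alone, with 0 peaks in the other 3 lists, while Shc, an adaptor gene of the same step, had a peak in replicate 2 alone, with a signal of 129. Kinase cascade genes did in 1 of 6, Raf itself, which had 63 pooled candidates, against 3 at Ras85D, 4 at Dsor1, 8 at ksr, 13 at cnk and 18 at rl. Receptor genes did in 0 of 3, with 58 candidates at Egfr, 11 at btl and 35 at htl. Outside the 10, 9 of the 27 listed genes carried a pooled peak, beside the same shares of 13.9% and 24.9%. With 3 to 7 genes a step and candidate numbers this unequal, no order of the steps is read from these counts. The list was drawn up with earlier results of these data known and was not tested.

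**Figure D4:**
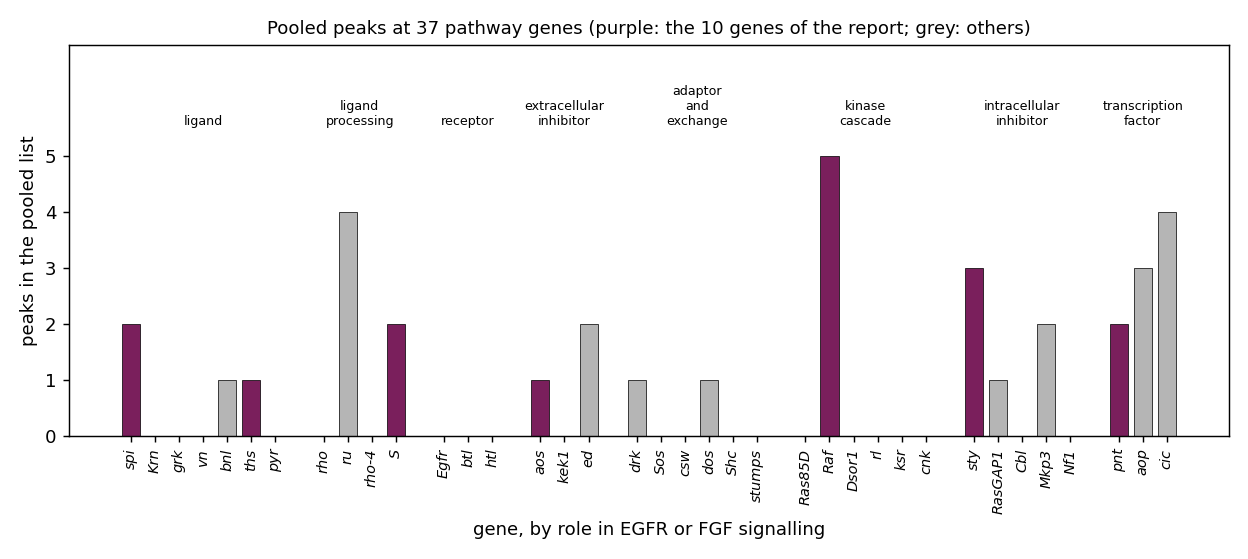
Number of pooled peaks (vertical axis) at each of 37 pathway genes, grouped by role; purple bars are the 10 genes and grey bars the others. Raf has 5 peaks, cic and ru have 4 each in this list (ru has 1 in replicate 1 and 0 in replicate 2), and the 3 receptor genes have none.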

How the data were processed

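Both samples are Bowl-eGFP embryo replicates. The authors deposited ranked and thresholded peak lists on dm6, per the labels, with an aligner and peak caller not given in the sources used here. Control reads were not used here. Peak signal was used as the score the authors deposited, and the −log10 IDR as deposited in the ranked lists. Tested on the files, each thresholded list was found whole in the ranked list of its kind at a −log10 IDR of at least 2, and the 89 pooled candidates past that value but not listed included 0 at the 10 genes. Unnamed per-peak-set columns were not used.

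Gene models were Ensembl release 115 for BDGP6.54, and sequence was RefSeq Release 6, whose arms contain every candidate. Summits were the start plus the deposited offset. Promoters were summits within 500 bp of a protein-coding TSS; then came CDS, 5' UTR, 3' UTR, intron and intergenic. Peaks of 2 lists were matched where they shared 1 bp or more, and a site's value in a list is that of the overlapping candidate of highest signal. Of 37 pathway genes, 36 matched by name and 1 (RasGAP1) by a RefSeq synonym. The genes named were the 10, with every pooled peak, and the other pathway genes with a pooled peak. The 10 genes, the pathway list and the words were chosen with earlier results of these data known, and the design has 1 group, so no test was made. Functions were checked on made-up input. Python 3.11.15, pandas 2.3.3 and matplotlib 3.10.9 were used. Alternatives were other lists, assignments, promoter and word windows, overlap rules and each replicate alone.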

Additional observations from a re-analysis of the deposited data

How the results depend on the processing

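Of 45 values recomputed under alternatives, 37 stayed within 1.5 times the reported count. The 16 peaks at the 10 genes numbered 8 to 18 with 1 replicate left out, that is, in the list of the other alone (8 without replicate 1) and 10 with assignment to the nearest TSS within 5 kb. The 4 promoter peaks numbered 1 to 3 with 1 replicate left out, 2 in the conservative list, 1 among peaks that reached the median signal and 2 with a promoter window of 200 bp. The 5 summits with a word numbered 3 within 50 bp and 9 within 200 bp. The number of the 10 genes with a peak was 6 or 7 under every alternative run, though not always the same genes: replicate 1 lacked spi and had rho, and replicate 2 lacked pnt. No paired analysis was possible because both samples belong to 1 group. Replicate 2 yielded fewer peaks, read depth is unknown, and the part of depth in the sites missing from it was not tested.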

Other observations

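The spi region of signal 8.31 belonged to a kind of entry found throughout the lists. Of the 2198 pooled peaks, 84 (3.82%) overlapped a stronger peak of the same list, with a median signal of 9.31 against 83.9 for the others. For 80 of the 84 the −log10 IDR differed from that of the stronger peak by less than 0.01. Of pooled peaks with a signal under 30, 76 were such overlapping regions and 5 were not. The lists of replicate 1 and replicate 2 held 60 and 9 such regions, with median signals of 7.84 and 6.42. At the 10 genes there were 2 of them, at spi in the pooled list and at ths in replicate 1 (signal 2.35), so counts of peaks per gene include regions that sites merged by overlap do not.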
